A study of Homo sapiens with 2 samples.

Results

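TXNIP and 4 relatives, ARRDC1, ARRDC2, ARRDC3 and ARRDC4, were examined in HT-29 cells given MYC siRNA. They were represented by every probe set that the platform annotation assigns to 1 of these symbols alone. These were 8 of the 54675 probe sets and 5 of the 19775 genes that any single-gene probe set named: 3 probe sets for TXNIP, 2 for ARRDC1 and 1 each for ARRDC2, ARRDC3 and ARRDC4. HT-29 is a human colorectal adenocarcinoma line. Its cells received either a pool of siRNAs against MYC or a non-targeting pool, at 20 nM and with the reagent lipofectamine RNAiMAX; the transfection took 24 h and the cells were used after 48 h. The 2 samples are 1 array each, MYC siRNA and control siRNA. The treatment field of the control sample reads None, whereas the protocol in the labels gives the non-targeting pool as the control. With 1 array per condition the differences below could not be set against replicates, and none carries a p-value.

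TXNIP and the ARRDC proteins are alpha-arrestins. They share the arrestin fold and carry PPxY motifs that bind ubiquitin ligases of the NEDD4 family, and they serve as adaptors in the ubiquitination and uptake of membrane proteins. TXNIP also binds thioredoxin and lowers glucose uptake, in part by driving endocytosis of the glucose transporter GLUT1. The transcription factor MondoA, encoded by MLXIP, works as a dimer with MLX and is drawn to the nucleus by glucose 6-phosphate. Its textbook targets are TXNIP and ARRDC4, through paired E-box-like sites called carbohydrate response elements, which ChREBP, encoded by MLXIPL, also binds. MYC and its partner MAX bind E-boxes too, and in breast cancer cells MYC has been described as repressing TXNIP. Neither MondoA binding nor MondoA activity was measured here, so that membership of its targets rests on this background alone.

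The promoters of TXNIP and ARRDC4 are shown because this pair is the best known of the MondoA targets. All 5 genes matched the RefSeq promoter table (GRCh38.p14), with 2 start sites each for TXNIP, ARRDC2 and ARRDC3. The 250 bases before the start are printed for TXNIP (chr1:145996580-145996829, minus strand) and ARRDC4 (chr15:97960453-97960702, plus strand). Capitals mark the paired boxes in TXNIP, the E-box CACGTG in ARRDC4, and CCAAT, the site of the factor NF-Y, read on either strand and so also as ATTGG.

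TXNIP: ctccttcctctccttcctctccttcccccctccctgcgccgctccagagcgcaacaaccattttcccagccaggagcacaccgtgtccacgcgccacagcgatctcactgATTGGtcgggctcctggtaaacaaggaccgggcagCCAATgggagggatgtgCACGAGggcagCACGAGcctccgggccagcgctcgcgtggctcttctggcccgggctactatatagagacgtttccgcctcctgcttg

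ARRDC4: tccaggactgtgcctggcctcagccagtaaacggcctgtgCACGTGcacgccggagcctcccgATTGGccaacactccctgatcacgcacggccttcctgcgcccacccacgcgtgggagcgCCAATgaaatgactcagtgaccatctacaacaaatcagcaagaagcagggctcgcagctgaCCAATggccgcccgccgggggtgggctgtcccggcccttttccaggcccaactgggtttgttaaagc

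The TXNIP promoter held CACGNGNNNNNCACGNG, a pair of boxes in the spacing of a carbohydrate response element, with its first base 88 bases before the start and CCAAT matches beginning 140 and 105 bases before it. This motif, searched on both strands and chosen with the TXNIP element known, was in 16 of 35116 promoter windows of this length (0.0456%). In 3 windows it stood with at least 2 CCAAT matches. The ARRDC4 promoter did not hold these letters. It held CACGTG, whose reverse strand reads the same, with the first base 210 bases before the start, and CCAAT matches beginning 187, 128 and 67 bases before it. CACGTG was in 6.34% of all windows, at least 2 CCAAT matches in 9.53% and at least 3 in 2.93%. The second TXNIP start and all starts of ARRDC1, ARRDC2 and ARRDC3 had neither the paired boxes nor CACGTG in their windows. These matches describe the letters and were not tested as binding sites.

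The deposited values are signals on a linear scale, one per probe set, set by the authors to a mean level of 100 on each array. As in the methods of the study, signals under 50 were set to 50 before dividing MYC siRNA by control siRNA and taking log2, and a ratio of at least 2 or at most 0.5 marked a differentially expressed probe set. Signals exceeded 50 in 16571 probe sets with MYC siRNA and in 16074 with control siRNA. MYC itself, measured by 1 probe set, had a signal of 1640 with MYC siRNA and 1963 with control siRNA, 1.20-fold lower, a log2 ratio of -0.26 that was -0.16 after a loess fit on mean signal. The median log2 ratio was 0.15 in the dimmest and -0.10 in the brightest genes (5 groups of like size by mean signal), so each member's ratio is also given after such a fit, which removes that dependence. Probe sets that name 1 gene differed among themselves in log2 ratio with an SD of 0.28 for dim genes, 0.23 for middle and 0.17 for bright ones. This probe-set SD was taken as the nearest measure of error at hand and leaves out the variation between cultures. The log2 ratio of MYC before loess, -0.26, lies beyond the SD of bright genes, and its loess value, -0.16, lies within it. The paper reports knockdown of MYC by siRNA in HT-29 cells, shown by immunoblot. That is a measure of protein, which the arrays do not give. The paper also reports lower expression of curated MYC target signatures and decreased cell growth after MYC siRNA. That gene set result was not repeated here. Of 10 markers of colon epithelium, 8 were above 50 on at least 1 array, whereas CDX1 and CDX2, transcription factors of the intestine, were at or under 50 on both. Of 9 markers of other cell types, 8 were at or under 50 on both arrays.

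No member probe set reached 2-fold in either direction. Of the 8, 7 were above 50 on both arrays, of which 4 were higher and 3 lower with MYC siRNA, and their median log2 ratio was 0.01. Among all 17127 probe sets above 50 on at least 1 array, 2.19% were at least 2-fold higher and 0.607% at least 2-fold lower, so that a count of 0 among 7 is near this background. At a threshold of 1.5-fold, 1 member was lower and none higher, against 5.83% and 9.13% of all probe sets. The median log2 ratio of all probe sets was also 0.01. Log2 ratios of the members spanned -0.70 for ARRDC4 to 0.43 for ARRDC1, and only these 2 exceeded the probe-set SD at their brightness. The share of all probe sets beyond this SD was not counted, so the count of 2 has no background to be read against. Among other probe sets within 0.25 of the member's mean log2 signal, 3.73% were at least as low as ARRDC4. For ARRDC1, 12.9% of such probe sets were at least as high.

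**Figure D1:**
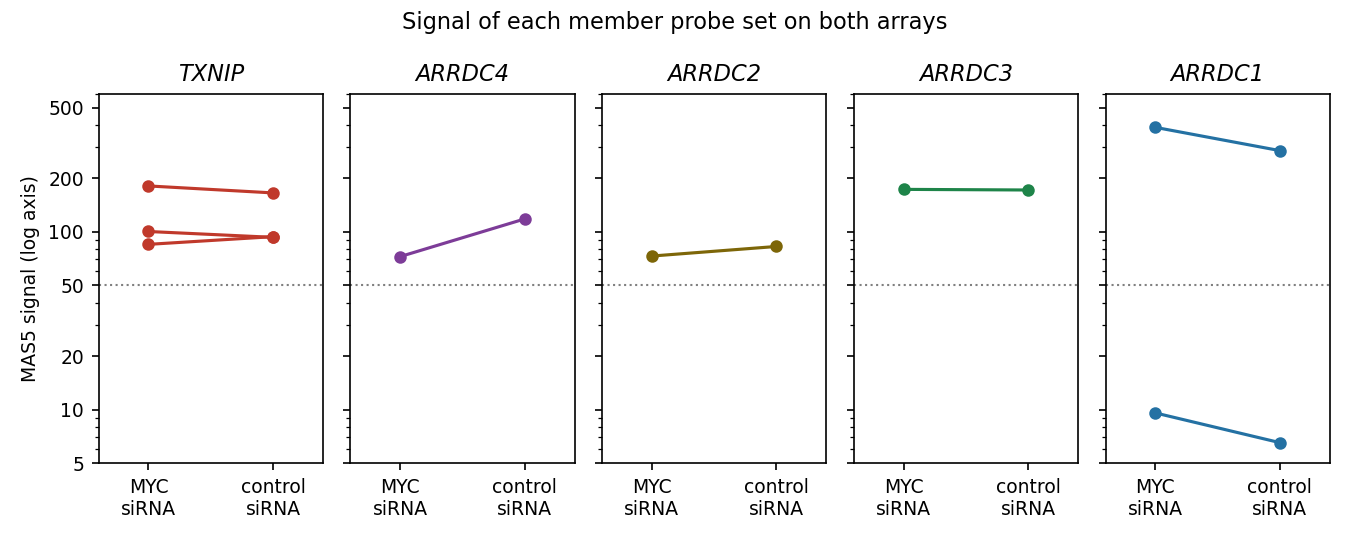
MAS5 signal (y axis, log scale) of each member probe set with MYC siRNA (left) and control siRNA (right), 1 line per probe set and 1 array per condition; the dotted line marks 50, under which signals were set to 50. ARRDC4 has 72.6 with MYC siRNA and 118 with control siRNA, ARRDC1 387 and 286 in its brighter probe set, and the lines of TXNIP, ARRDC2 and ARRDC3 are nearly level.

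TXNIP, the thioredoxin-binding member, hardly differed between the arrays in any of its 3 probe sets. Probe set 201010_s_at had a signal of 181 with MYC siRNA and 166 with control siRNA, 1.09-fold higher, a log2 ratio of 0.13. Probe set 201009_s_at had 100.5 with MYC siRNA and 93.1 with control siRNA, 1.08-fold higher, a log2 ratio of 0.11. Probe set 201008_s_at had 85.0 with MYC siRNA and 94.0 with control siRNA, 1.10-fold lower, a log2 ratio of -0.14. The probe sets thus pointed in different directions, and each differed by less than the probe-set SD for its brightness. After loess the log2 ratios were 0.10, 0.04 and -0.22 in the same order, all still within that SD. Of the 1959 other probe sets with a mean log2 signal within 0.25 of 201010_s_at, 38.6% had a ratio at least as high, and of the 2023 near 201008_s_at 30.3% had one at least as low. A change of 2-fold in TXNIP, in either direction, was not seen in any probe set, although the spread between cultures is unknown.

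ARRDC4, the other textbook MondoA target and an adaptor for uptake of membrane proteins, was the lowest member. Its single probe set, 225283_at, had a signal of 72.6 with MYC siRNA and 118 with control siRNA, 1.63-fold lower, a log2 ratio of -0.70. This is more than the probe-set SD of 0.28 for dim genes. Of 2009 other probe sets within 0.25 of its mean log2 signal, 75 (3.73%) had a ratio at least as low, and 90% of them lay between -0.63 and 1.05. The log2 ratio was -0.78 after loess and -0.81 after quantile normalization. Both signals lie close to the floor, and with signals under 100 set to 100 the log2 ratio was -0.24.

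**Figure D2:**
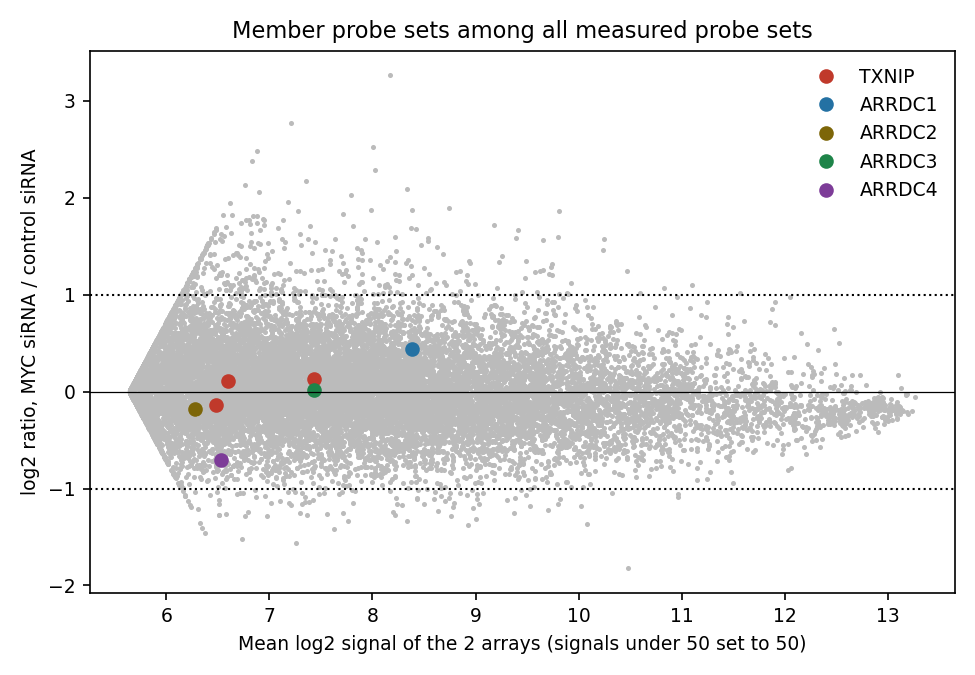
Log2 of the ratio MYC siRNA to control (y axis) against the mean log2 signal of both arrays (x axis) for the 17127 probe sets above 50 on at least 1 array (grey) and the 7 member probe sets (coloured by gene); dotted lines mark 2-fold. ARRDC4 lies at -0.70 near the lower edge of equally bright probe sets, ARRDC1 at 0.43 in their upper part, and the others between -0.18 and 0.13.

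ARRDC2 and ARRDC3 are adaptors that link membrane receptors to NEDD4-family ligases, and ARRDC3 has been described as lowering the beta-2 adrenergic receptor and integrin beta 4 at the cell surface. ARRDC2 had a signal of 73.1 with MYC siRNA and 82.8 with control siRNA in probe set 226055_at, 1.13-fold lower, a log2 ratio of -0.18. This is within the probe-set SD for dim genes, and 28.1% of 2056 equally bright probe sets were at least as low. Its log2 ratio was -0.27 after loess, still within that SD, and -0.29 after quantile normalization, slightly beyond it. ARRDC3 had a signal of 173 with MYC siRNA and 172 with control siRNA in probe set 224797_at, a log2 ratio of 0.01. This was the smallest difference among the members, and it turned to -0.02 after loess and -0.04 after quantile normalization. The antisense neighbours ARRDC1-AS1 and ARRDC3-AS1 were at or under 50 on both arrays.

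ARRDC1, which recruits the ESCRT protein TSG101 to the plasma membrane and drives the budding of extracellular vesicles there, was the highest member. Probe set 226405_s_at had a signal of 387 with MYC siRNA and 286 with control siRNA, 1.35-fold higher, a log2 ratio of 0.43. This is beyond the probe-set SD of 0.17 for bright genes, while 12.9% of 1646 equally bright probe sets were at least as high. The log2 ratio was 0.43 after loess and 0.42 after quantile normalization. The other probe set, 234607_at, had signals of 9.58 with MYC siRNA and 6.52 with control siRNA. Both lie under the floor, so it gave no fold and does not bear on the first.

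**Figure D3:**
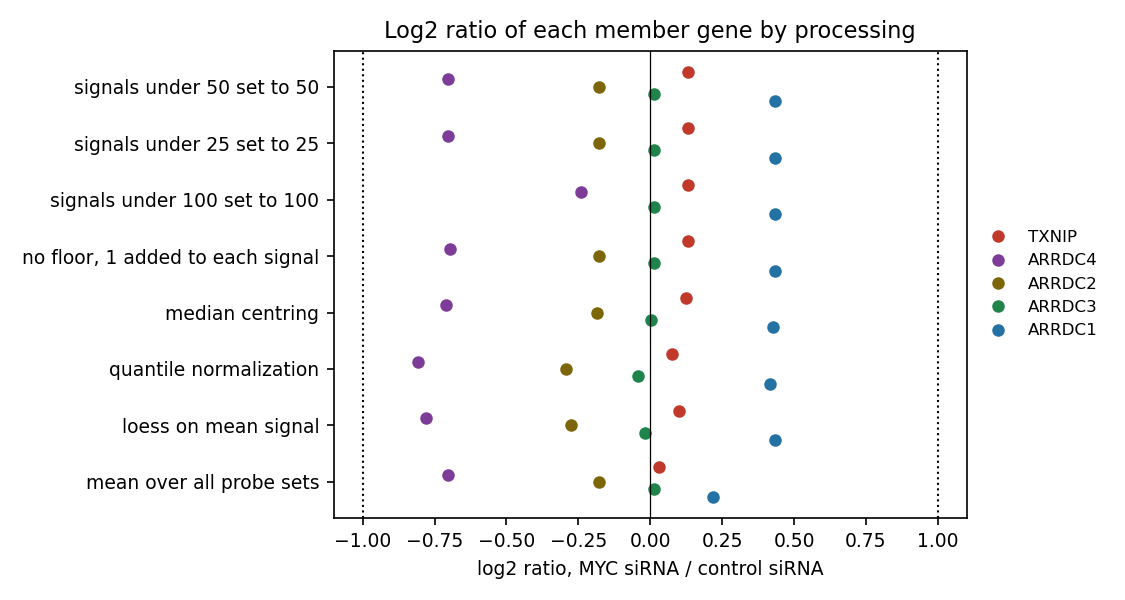
Log2 of the ratio MYC siRNA to control (x axis) for each member gene, from its brightest probe set except in the last row, under 8 ways of processing (rows); dotted lines mark 2-fold. ARRDC4 is lowest and ARRDC1 highest in every row, ARRDC2 has no value where signals under 100 are set to 100, ARRDC4 is -0.24 there against -0.70 in the first row, and ARRDC1 is 0.22 in the mean with its probe set under 50.

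The 3 genes with a log2 ratio nearest to that of TXNIP, among 1976 genes with a mean log2 signal within 0.5 of it, were USP54, CNPPD1 and SNX27, each at 0.13. With 2 arrays, likeness of pattern is no more than likeness of this ratio, and 389 of these genes lay within 0.1 of TXNIP.

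The factors that act on TXNIP and ARRDC4 were next considered. MLXIP, encoding MondoA, was lower in both of its probe sets above 50: 225157_at had 194 with MYC siRNA and 220 with control siRNA, 1.14-fold lower, and 202519_at had 163 with MYC siRNA and 210 with control siRNA, 1.29-fold lower. The first lies within the probe-set SD for middle genes, and the second, with a log2 ratio of -0.37, beyond it. MLX, its dimer partner, had 487 with MYC siRNA and 478 with control siRNA in its brightest probe set, a log2 ratio of 0.03, while its other 3 probe sets above 50 on at least 1 array had log2 ratios of -0.10 to -0.26. MLXIPL, encoding ChREBP, had signals of 2.05 with MYC siRNA and 0.717 with control siRNA and is under the floor on both. Of 6 partners of MLX and MAX measured, 2 were higher and 4 lower, with a median log2 ratio of -0.31 (-0.52 to -0.12 over the alternatives) against 0.03 over all 8917 genes above 50. MAX, the partner of MYC, had 293 with MYC siRNA and 490 with control siRNA, 1.68-fold lower, and its other 2 probe sets above 50 were 1.36-fold and 1.59-fold lower. MXI1, a repressor that pairs with MAX, was 1.59-fold lower, and MNT, which can pair with MAX or MLX, 1.30-fold lower. The 2 higher genes, MXD1 and MXD3, named after their values were seen, were 1.26-fold and 1.31-fold higher. MXD3 was under 50 with control siRNA. By comparison, 46.5% of all genes were lower.

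Genes described elsewhere as glucose-responsive through ChREBP or MondoA were mostly lower. Of 12 written, 7 were above 50, of which 6 were lower and 1 higher, with a median log2 ratio of -0.56. Over all genes 46.5% were lower and 53.5% higher. PFKFB3, which makes the activator of phosphofructokinase, was 2.17-fold lower, at 62.1 with MYC siRNA and 135 with control siRNA. This rests on a single probe set, whose signal with MYC siRNA lies close to the floor. PFKFB3 was the only gene of the list past 2-fold, against 0.695% of all genes 2-fold lower and 2.73% 2-fold higher. FASN, the fatty acid synthase, was 1.57-fold lower, and ACLY, which makes acetyl-CoA in the cytosol, 1.52-fold lower. KLF10, a transcription factor named here after its value was seen, was the 1 higher gene, 1.24-fold. Several of these genes are also targets of other regulators of lipid synthesis, and whether MondoA had a part in their ratios was not tested.

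In glucose uptake and trapping, which supply the glucose 6-phosphate that MondoA senses, 3 of 6 measured genes were higher and 3 lower (median log2 ratio 0.11). HK2, a hexokinase, had 192 with MYC siRNA and 465 with control siRNA, 2.42-fold lower. HK1, another hexokinase, also named after its value was seen, was 1.17-fold higher, at 456 with MYC siRNA and 391 with control siRNA. SLC2A1, encoding GLUT1, the transporter that TXNIP removes from the surface, was 1.33-fold higher in its brightest probe set, at 799 with MYC siRNA and 602 with control siRNA, and 1.15-fold higher in a dim one. GPI, which turns glucose 6-phosphate into fructose 6-phosphate, was 1.21-fold lower.

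Thioredoxin, the protein that TXNIP binds, is among the brightest genes, and its ratio turned with the normalization. TXN had a signal of 7765 with MYC siRNA and 7797 with control siRNA, a log2 ratio of -0.01, which was 0.18 after loess and 0.19 after quantile normalization. Of 10 measured genes of the thioredoxin system 3 were higher and 7 lower, with a median log2 ratio of -0.10. This median was -0.01 after loess and -0.03 after quantile normalization. By comparison, 46.5% of all genes were lower, and the brightest of the 5 groups of genes had a median of -0.10 before loess. TXNRD1, the reductase of thioredoxin, was 1.26-fold lower, a log2 ratio of -0.33 that was -0.18 after loess, and PRDX4, a peroxiredoxin of the endoplasmic reticulum, 1.58-fold lower. GLRX, a glutaredoxin, was 2.12-fold higher in its brightest probe set, at 417 with MYC siRNA and 197 with control siRNA, and 2.05-fold higher in the other.

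**Figure D4:**
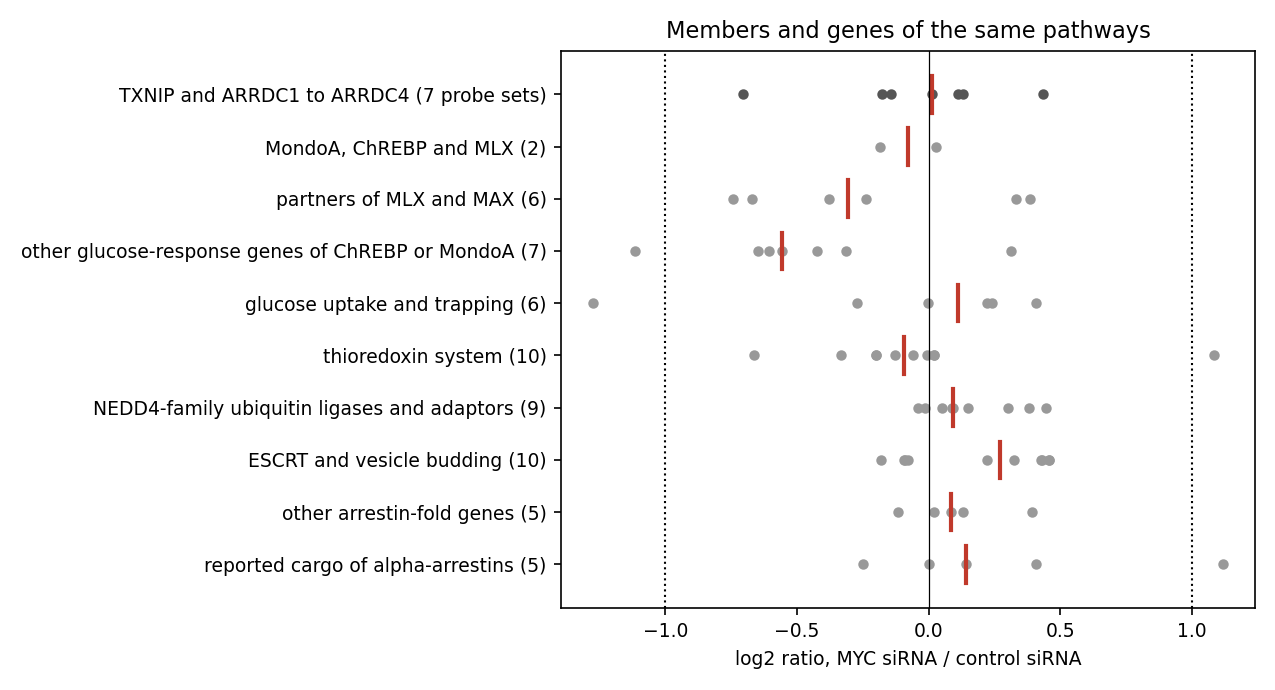
Log2 of the ratio MYC siRNA to control (x axis) for the 7 member probe sets and of each gene above 50 (points) in 9 lists (rows, number of genes in brackets), with medians as red bars and 2-fold as dotted lines. The members have a median of 0.01, the other glucose-response genes one of -0.56, and the genes of ESCRT and vesicle budding one of 0.27.

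Among partners of the alpha-arrestins no gene differed by 2-fold. Counts of higher genes are to be read beside the 53.5% of all genes that were higher. Of 9 measured NEDD4-family ligases and adaptors, 7 were higher and 2 lower, with a median log2 ratio of 0.09. In their brightest probe sets NDFIP1, an adaptor that activates these ligases, was 1.36-fold higher, NEDD4 1.30-fold and SMURF2 1.23-fold. Other probe sets of NDFIP1 above 50 were 1.29-fold and 1.03-fold higher. Those of SMURF2 above 50 on at least 1 array were 1.06-fold higher, 1.20-fold higher and 1.05-fold lower. ITCH, the ligase described as targeting TXNIP, was named after its value was seen and had a log2 ratio of 0.05. Of 10 measured genes of ESCRT and vesicle budding, on which the vesicles of ARRDC1 depend, 6 were higher and 4 lower, near the share over all genes. Their median log2 ratio was 0.27. TSG101, the partner of ARRDC1, had 1139 with MYC siRNA and 847 with control siRNA, 1.34-fold higher. VPS28, another subunit of its complex, and VPS4B, the ATPase that ends budding, were both 1.37-fold higher, and STAM2, an endosomal sorting protein, 1.35-fold. The 4 lower genes, named after their values were seen, were VPS4A, VPS37A, VPS37B and STAM. Their log2 ratios were -0.18, -0.09, -0.08 and -0.09.

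Among 5 measured other genes with an arrestin fold or related to it, 4 were higher and 1 lower (median log2 ratio 0.08). The retromer-like subunit VPS26C was 1.31-fold higher, and VPS26A and RGP1 were 1.09-fold and 1.06-fold higher. Of the membrane proteins described as cargo of alpha-arrestins, 5 were measured, 4 higher and 1 lower. Over all genes 53.5% were higher. SLC11A2, named after its value was seen, counts as higher with a signal of 287 on both arrays, and was at -0.01 after loess. ITGB4, the integrin that ARRDC3 has been described as lowering, had 578 with MYC siRNA and 266 with control siRNA, 2.17-fold higher, and was 2.56-fold higher in a second probe set. ARRDC3 itself had a log2 ratio of 0.01. NOTCH1, a receptor sorted with the help of ARRDC1, was 1.19-fold lower.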

How the data were processed

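RNA of 2 HT-29 cultures was hybridized on GeneChip Human Genome U133 Plus 2.0 arrays. The intensity values deposited by the authors were computed with MAS5 in affy 1.40.0 and scaled to a mean level of 100, which both arrays held once the outer 2% at either end were trimmed. Beyond this scaling there is no normalization between arrays. Signals under 50 were set to 50, and 37548 probe sets at or under 50 on both arrays gave no fold. Symbols were updated by gene identifier to RefSeq (GRCh38.p14), and a gene took its brightest single-gene probe set. With 1 array per condition the number of arrays limits the precision, and no test was made.

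The members and the 12 gene lists were chosen with earlier results of these data known. Named are all member probe sets, MYC, the genes of MondoA, ChREBP and MLX, up to 3 genes per other list with the largest ratio and a signal of at least 100, and the 3 genes nearest to TXNIP. Genes named outside this rule are marked, apart from CDX1, CDX2, TXN, TSG101, NLRP3, CASP1, IL1B and the antisense genes, also chosen after their values were seen. Promoter windows are from RefSeq. A planned description of protein sequences was not made here. The calculations were tested on simulated arrays. Folds were set there only in probe sets brighter than those of TXNIP, ARRDC2, ARRDC3 and ARRDC4, so the test does not cover such signals. Alternatives were fold thresholds of 1.5 and 3, other floors, quantile normalization, median centring, loess (span 0.3) and other choices of probe set. Python 3.11.15, numpy 2.4.6, pandas 2.3.3, statsmodels 0.14.6 and matplotlib 3.10.9 were used.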

Additional observations from a re-analysis of the deposited data

How the results depend on the processing

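Of 37 alternative values of the 5 member ratios, 35 moved by less than the probe-set SD. Many of these could not move, so the count is no measure of stability. A floor of 25 leaves signals above 50 as they are. Genes with 1 probe set keep their value in the mean over probe sets. The log2 ratio of ARRDC4 was -0.24 with signals under 100 set to 100, which replaces its signal of 72.6 with MYC siRNA by 100. ARRDC2, under 100 on both arrays, gave no value there. That of ARRDC1 was 0.22 in the mean over its probe sets, which counts the one under 50 as unchanged. Without probe sets ending in s_at or x_at, TXNIP and ARRDC1 had none above 50 and gave no value. At a threshold of 1.5-fold 1 member was lower. No member passed 2-fold under any alternative for the floor or the normalization. Among all probe sets, those at least 2-fold higher numbered 640 with a floor of 25, 184 with a floor of 100 and 620 without a floor, against 375 in the report. Medians of the gene lists shifted with the processing, by less than the probe-set SD in all 63 alternatives. That SD describes single probe sets and not medians. The median of ESCRT and vesicle budding lay between 0.17 and 0.29. That of other glucose-response genes lay between -0.57 and -0.42. That of partners of MLX and MAX lay between -0.52 and -0.12, that of reported cargo between 0.08 and 0.27, that of colon markers between 0.16 and 0.33, that of glucose uptake between -0.02 and 0.23 and that of arrestin-fold genes between -0.01 and 0.11. Most members are dim or of middle brightness, and the variation between cultures could not be assessed for any of them.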

Other observations

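PYCARD, the adaptor of inflammasomes, which TXNIP has been described as activating through NLRP3 in other cells, had a signal of 322 with MYC siRNA and 161 with control siRNA, 1.996-fold higher. IL18, a cytokine released through inflammasomes, was 1.62-fold higher. The other 3 genes of this list, NLRP3, CASP1 and IL1B, were at or under 50 on both arrays. Of 8 measured markers of colon epithelium 6 were higher and 2 lower, while 53.5% of all genes were higher. LGALS4, a galectin of the gut, was 1.72-fold higher and KRT20, a keratin of differentiated colon cells, 1.41-fold higher. The 2 lower markers were EPCAM, 1.14-fold, and KRT18, 1.02-fold. CDH17 was counted as higher at 55.0 with MYC siRNA and under 50 with control siRNA. These last 3 genes were named after their values were seen.

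Of 10 measured genes with the paired boxes of TXNIP in a promoter window, 5 were higher and 5 lower, with a median log2 ratio of -0.05. The 893 measured genes with CACGTG, the letters found in ARRDC4, had a median of -0.02, and 51.0% were lower; 12 were at least 2-fold higher and 11 at least 2-fold lower. The 6589 measured genes with a promoter window but without CACGTG had a median of 0.04, and 46.1% were lower; 188 were at least 2-fold higher and 37 at least 2-fold lower. These differences were not tested.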
